A study of Mus musculus with 8 samples.

Results

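The genes described here are 8 prostate lineage and androgen-pathway genes chosen by name: the forkhead factors Foxa1 and Foxa2, the zinc finger factors Gata2 and Gata3, the steroid reductases Srd5a1 and Srd5a2, the membrane protease Tmprss2 and the basal cell factor Trp63. Of the 8, 6 were named by a probe set of the array, with 10 of the 22626 probe sets tested. Srd5a1 and Srd5a2 were named by none and are not analysed here. Tmprss2 and Gata2 had 2 probe sets each, Trp63 had 3, and the other genes had 1. All samples were ventral prostates of 20-week-old mice of the FVB strain. The transgenic group, with 4 samples, overexpressed an active form of the PI3-kinase isoform p110 beta, and its tissue was labelled as mouse prostatic intraepithelial neoplasia. The wild type group, with 4 samples, was labelled normal. The promoter of the transgene, its founder lines and any pooling of animals are not given in the sources used here. Because no label ties an array to an animal of its own, the p-values cover the spread among these 8 arrays only, and that spread may be technical.

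Luminal cells of the prostate secrete the gland's fluid under the control of androgens. Steroid reductases turn testosterone into dihydrotestosterone, the hormone with the higher affinity for the androgen receptor, and the receptor then binds DNA beside FOXA and GATA factors that open chromatin or bind next to it. Basal cells lie beneath the luminal layer, depend on p63 and contribute little of the secretion. TMPRSS2 is best known for human prostate cancer, where its androgen-responsive promoter is often fused to an ETS factor gene.

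Values are log2 RMA values, a scale on which a difference of 1 is a 2-fold difference. The medians of the 8 arrays lay between 5.40 and 5.51, and a probe set below every array median lies where background can set the value. Both group means were below every median for 5 of the 10 probe sets. Differences are transgenic minus wild type, tested with limma and Benjamini-Hochberg adjustment over all 22626 probe sets at a threshold of 0.05. A gene with several probe sets is represented by the one with the highest mean over the arrays. The number of arrays limits the precision.

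Of the 6 measured genes, 1 rose, Tmprss2, and 2 fell, Trp63 and Gata2, while Foxa1, Foxa2 and Gata3 did not pass the threshold. Over all 12393 named genes 11.0% passed in either direction, 5.99% higher and 4.98% lower in transgenic prostates. By probe set, 2 of 10 rose and 2 fell, where 9.84% of all probe sets passed. The groups did not overlap for 3 of the 10 probe sets, against 15.0% of all probe sets, and for 2 of the 6 genes, against 16.3% of all genes. These shares rest on 6 genes and are a description.

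The RefSeq promoter windows of 3 of these genes are shown because they belong to the gene that rose, to a gene that fell and to the 1 forkhead gene whose window held a forkhead motif. Each is the 250 bases before an annotated start on assembly GRCm38.p6, printed 5′ to 3′ on the gene's strand. Capitals mark a match to the forkhead motif TGTTTAC, the GATA motif AGATAA or the androgen receptor half-site AGAACA, searched on both strands. The motifs do not overlap here.
Tmprss2, chr16:97611196-97611445, minus strand: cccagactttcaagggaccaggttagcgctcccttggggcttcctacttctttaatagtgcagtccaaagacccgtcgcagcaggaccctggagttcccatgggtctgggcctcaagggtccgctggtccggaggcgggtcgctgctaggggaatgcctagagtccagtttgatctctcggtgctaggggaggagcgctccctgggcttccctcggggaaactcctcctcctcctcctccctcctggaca
Gata2, upstream start, chr6:88193641-88193890, plus strand: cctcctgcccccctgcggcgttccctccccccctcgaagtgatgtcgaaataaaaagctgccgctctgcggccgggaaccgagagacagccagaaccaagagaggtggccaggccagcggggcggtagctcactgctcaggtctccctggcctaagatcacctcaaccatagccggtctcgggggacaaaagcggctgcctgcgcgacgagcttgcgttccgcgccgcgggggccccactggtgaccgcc
Gata2, downstream start, chr6:88198414-88198663, plus strand: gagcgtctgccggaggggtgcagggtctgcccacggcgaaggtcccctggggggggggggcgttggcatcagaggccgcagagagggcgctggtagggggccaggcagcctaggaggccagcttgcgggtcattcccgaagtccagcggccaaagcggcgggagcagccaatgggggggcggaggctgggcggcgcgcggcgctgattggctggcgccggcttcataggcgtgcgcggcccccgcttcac
Foxa1, chr12:57546112-57546361, minus strand: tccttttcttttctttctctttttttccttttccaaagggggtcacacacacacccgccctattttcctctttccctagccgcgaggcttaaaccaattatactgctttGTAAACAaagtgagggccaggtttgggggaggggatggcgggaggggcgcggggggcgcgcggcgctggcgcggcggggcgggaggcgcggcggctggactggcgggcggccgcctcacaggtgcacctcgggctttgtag
The Foxa1 window held the forkhead motif once, as its reverse complement, with its first base 141 bases before the start. The Tmprss2 window and both Gata2 windows held none of the motifs. Among all 32851 windows of this length, 3.17% held the forkhead motif, 9.99% the GATA motif and 16.1% the half-site. No window was listed for Trp63. A match is a description of letters, and its absence from these windows says nothing of binding.

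Tmprss2 encodes a serine protease anchored in the apical membrane of luminal and other secretory epithelia. At probe set 1419154_at it was at 10.67, 10.78, 10.88 and 10.97 in transgenic arrays 1 to 4, against 9.78, 9.81, 9.87 and 9.95 in wild type arrays 1 to 4. Every transgenic array was higher than every wild type array, and the spread within each group was small beside the gap. The difference was 0.97 ± 0.10 (SE), a 1.96-fold rise (limma adjusted p = 8.42e-05).

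At the dimmer probe set 1449369_at, Tmprss2 was at 8.67, 9.13, 9.55 and 9.12 in transgenic arrays, against 7.34, 7.18, 7.34 and 7.41 in wild type arrays. Again the groups did not overlap, with a difference of 1.80 ± 0.16 (SE), a 3.48-fold rise (limma adjusted p = 2.94e-05). Both probe sets kept their call under every alternative run, including without each array. They did not give the same size of change: the first minus the second lay between 1.33 and 2.01 in transgenic arrays and between 2.44 and 2.63 in wild type arrays. The fold of Tmprss2 thus depended on the probe set, and its direction did not.

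**Figure D1:**
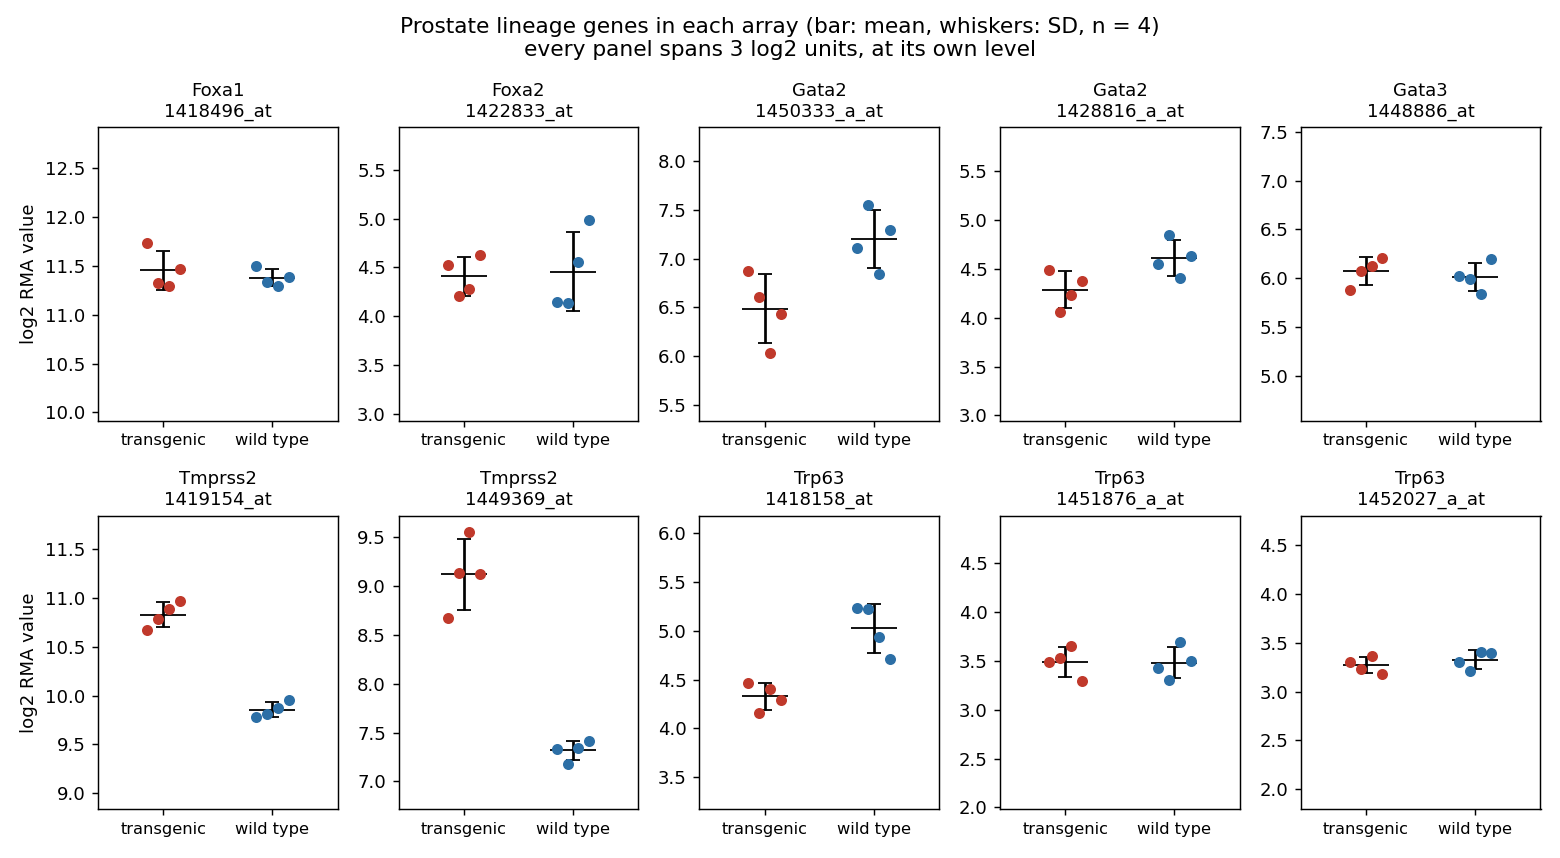
Log2 RMA values of every probe set of the 6 measured genes, 1 dot per array, transgenic (red) left of wild type (blue), with the mean as a bar and the SD as whiskers (n = 4 each); each panel spans 3 log2 units at its own level. The 2 Tmprss2 panels and Trp63 at 1418158_at show groups that do not overlap.

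Trp63 encodes p63, the p53-family factor of basal cells of stratified and glandular epithelia. Probe set 1418158_at gave 4.47, 4.15, 4.40 and 4.29 in transgenic arrays, against 5.23, 5.22, 4.93 and 4.71 in wild type arrays. All transgenic arrays were below all wild type arrays. The difference was -0.70 ± 0.13 (SE), a level 1.62-fold higher in wild type (limma adjusted p = 0.00652). Both group means, 4.33 ± 0.14 in transgenic and 5.02 ± 0.25 in wild type samples (SD, n = 4 each), were below every array median, so this fold is approximate. Leaving out each array gave differences from -0.80 to -0.63, with the call kept each time.

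The other Trp63 probe sets were dimmer and did not pass. Probe set 1451876_a_at averaged 3.49 ± 0.15 in transgenic and 3.48 ± 0.16 in wild type samples, and 1452027_a_at averaged 3.27 ± 0.08 and 3.33 ± 0.09 (SD, n = 4 each, transgenic first), with differences of 0.01 and -0.06. With the mean of all 3 probe sets in place of the brightest, Trp63 was at -0.25 and missed the threshold (limma adjusted p = 0.0921). The fall of Trp63 therefore rests on 1 of its 3 probe sets. In whole tissue, fewer cells of a type and less RNA per cell cannot be told apart.

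Gata2 encodes a zinc finger factor that binds DNA with the androgen receptor in prostate cells and is also made in endothelium, mast cells and blood progenitors. Probe set 1450333_a_at gave 6.88, 6.61, 6.04 and 6.43 in transgenic arrays, against 7.11, 7.55, 6.84 and 7.29 in wild type arrays. The groups overlapped: transgenic array 1, the highest of its group, lay just above wild type array 3, the lowest of its own. The difference was -0.71 ± 0.19 (SE), a level 1.63-fold higher in wild type (limma adjusted p = 0.0344). The call depended on single arrays. It was lost without transgenic array 2 (adjusted p = 0.0681), 3 (adjusted p = 0.0948) or 4 (adjusted p = 0.0925) and without wild type array 2 (adjusted p = 0.0926) or 4 (adjusted p = 0.0757) in the same limma fit, with differences from -0.84 to -0.56 over the arrays left out.

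The dimmer Gata2 probe set, 1428816_a_at, had values of 4.49, 4.06, 4.23 and 4.37 in transgenic arrays and 4.55, 4.84, 4.41 and 4.63 in wild type arrays. Its groups overlapped and both means lay below every array median. The difference of -0.32 ± 0.13 (SE) did not pass (limma adjusted p = 0.156).

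Gata3 encodes a GATA factor of luminal epithelium that also directs T cell development. It was at 5.88, 6.08, 6.13 and 6.21 in transgenic arrays and at 6.03, 5.99, 5.84 and 6.20 in wild type arrays. The groups overlapped over nearly their whole range. The difference was 0.06, with a 95% confidence interval from -0.18 to 0.30 (limma adjusted p = 0.832).

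Whether the 2 GATA genes changed unequally was tested on the difference between their probe sets within each array. Gata2 minus Gata3 averaged 0.42 ± 0.46 in transgenic and 1.18 ± 0.25 in wild type samples (SD, n = 4 each), a change of -0.77. All 4 transgenic arrays were below all 4 wild type arrays, with transgenic array 1 at 0.996 just under wild type array 3 at 0.9998. The exact two-sided permutation p was 0.0286, the smallest that 70 assignments of arrays can give, and 0.0571 after adjustment over the 2 pairs computed, the other being Foxa1 and Foxa2, so the pair did not pass. Before adjustment the exact p stayed at 0.0286 without any 1 transgenic array and was 0.0571 without any 1 wild type array. The pair of steroid reductases could not be tested.

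Foxa1 encodes the forkhead pioneer factor that opens chromatin for the androgen receptor in luminal cells. It was at 11.73, 11.32, 11.30 and 11.47 in transgenic arrays and at 11.50, 11.33, 11.30 and 11.39 in wild type arrays. Transgenic array 1 was the highest, and the other arrays of both groups lay together. The difference was 0.08, with a 95% confidence interval from -0.17 to 0.33 (limma adjusted p = 0.776), and its sign turned without transgenic array 1 (-0.01).

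Foxa2 encodes the related factor of early endoderm, which in mouse prostate marks budding epithelium and neuroendocrine cells. It gave 4.53, 4.21, 4.28 and 4.63 in transgenic arrays and 4.15, 4.13, 4.56 and 4.99 in wild type arrays, where array 4 was the highest of all. Both means lay below every array median. The difference was -0.04, with a 95% confidence interval from -0.45 to 0.36 (limma adjusted p = 0.932). The within-array difference Foxa1 minus Foxa2 was also computed, but with Foxa2 this dim it cannot show whether the 2 forkhead genes changed alike. The neuroendocrine markers set beside Foxa2 gave no call: of 11 measured, 0 passed in limma and 2 had an unadjusted p under 0.05, and 10 had both means below every array median. Chga, a granule protein and the gene with the smallest p of the list, was at 4.36 ± 0.11 in transgenic and 4.59 ± 0.12 in wild type samples (SD, n = 4 each).

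**Figure D2:**
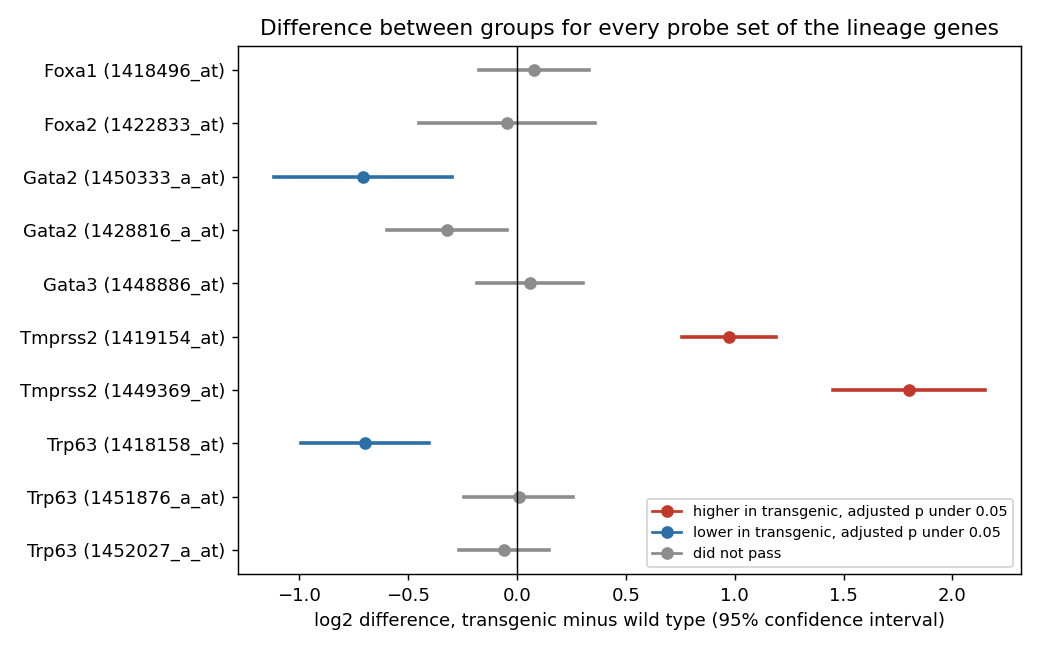
Difference in log2 RMA value, transgenic minus wild type, for each of the 10 probe sets, with its 95% confidence interval; red passed the threshold as higher and blue as lower in transgenic samples, grey did not pass. Both Tmprss2 intervals lie above 0, and of the Trp63 probe sets the interval of 1418158_at lies wholly below 0; the interval of Gata2 at 1428816_a_at, from -0.60 to -0.05, is not adjusted for the number of probe sets and that probe set did not pass.

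The genes whose pattern over the 8 arrays was most like a called member were found by Pearson correlation among 6115 or 6116 named genes brighter than the median gene. For Tmprss2 (1419154_at) they were Best2 (r = 0.996), Noxo1 (r = 0.992) and Chad (r = 0.991). Trp63 was most like Kel (r = 0.974), Abcf3 (r = 0.971) and Napg (r = 0.968), and Gata2 was most like Hps3 (r = 0.980), Itgb5 (r = 0.975) and Axin2 (r = 0.963). These correlations were taken over both groups together, so they include the difference between the groups and are descriptions.

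Other epithelial transcription factors of the prostate rose or did not pass. Their list was chosen with earlier results of these data known and is no independent evidence of its direction. Of 18 measured factors, 7 passed as higher and 0 as lower, where 5.99% of all genes passed as higher and 4.98% as lower. The median difference was 0.27, against -0.04 over all genes. Creb3l4, a membrane-bound bZIP factor of prostate epithelium, was at 7.34 ± 0.21 in transgenic and 4.97 ± 0.08 in wild type samples (SD, n = 4 each), where the wild type mean lay below every array median. Sox4, of the SOX family, was at 9.29 ± 0.34 against 7.48 ± 0.11, the ETS factor gene Elf3 at 8.04 ± 0.09 against 6.78 ± 0.15, and the ETS factor gene Spdef at 8.37 ± 0.19 against 7.69 ± 0.28 (SD, n = 4 each, transgenic against wild type). These 4 and Hoxa10 kept their calls without each array. Ehf kept its call only when wild type array 1 was left out, and Foxq1 only when wild type array 2 was (limma adjusted p up to 0.145 otherwise). Ehf also missed the threshold after quantile (adjusted p = 0.0836) or cyclic loess scaling (adjusted p = 0.0608), and Foxq1 with a mean-variance trend (adjusted p = 0.0510) or array weights (adjusted p = 0.0504). With the mean of its 3 probe sets, of which 2 passed, Ehf was at 0.59 and passed (limma adjusted p = 0.00926).

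Relatives of the members passed about as often as all genes, of which 11.0% passed in either direction. Of 10 FOXA and GATA relatives and GATA cofactors 0 rose and 1 fell, with a median of 0.08, and 5 had both means below every array median. The gene that fell was Zfpm1, encoding the GATA cofactor FOG, at 5.64 ± 0.13 in transgenic and 6.02 ± 0.12 in wild type samples (SD, n = 4 each; limma adjusted p = 0.0428). Zfpm1 kept its call only when transgenic array 1 or wild type array 1 was the one left out (limma adjusted p up to 0.135), and it did not pass once the variance prior followed a trend (adjusted p = 0.0608) or both its probe sets were averaged (adjusted p = 0.0881).

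Among 27 genes of steroid and androgen metabolism, 2 passed as higher and 1 as lower, where 11.0% of all genes passed. The median difference was -0.02, and 19 genes had both means below every array median. Srd5a3, a gene of the same reductase family, was at 7.40 ± 0.15 in transgenic and 7.48 ± 0.13 in wild type samples (SD, n = 4 each) and did not pass at any of its 4 probe sets. It was chosen for mention after its values were seen. Hsd3b7, a dehydrogenase of bile acid synthesis, was at 6.43 ± 0.16 against 7.83 ± 0.13, a difference of -1.40 (limma adjusted p = 1.52e-05). Akr1c14, an aldo-keto reductase that inactivates dihydrotestosterone, was at 4.41 ± 0.13 against 3.11 ± 0.05 (SD, n = 4 each, transgenic against wild type), with both means below every array median. Akr1c12, of the same family, rose by 0.72 and missed the threshold without transgenic array 1 or 3 or wild type array 3 or 4 (limma adjusted p up to 0.0815).

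For chaperones and coregulators of the androgen receptor, 1 of 17 passed as lower and 0 as higher (median difference 0.06). Over all genes 11.0% passed in either direction. The gene that passed was Ncoa4, a coactivator and ferritin receptor, at 10.46 ± 0.28 in transgenic and 11.42 ± 0.34 in wild type samples (SD, n = 4 each; limma adjusted p = 0.00575). The other of the 2 Ncoa4 probe sets, at -0.75, did not pass.

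Androgen-induced genes other than Tmprss2 fell more often than they rose. Of 23 measured genes, 10 passed as lower and 1 as higher, where 4.98% of all genes passed as lower and 5.99% as higher. The median difference was -0.38, against -0.04 over all genes. The list was put together with earlier results of these data known and is no independent evidence of its direction. Msmb, a secreted protein of prostate fluid, was at 11.66 ± 0.83 in transgenic and 13.38 ± 0.22 in wild type samples, and the glycine methyltransferase gene Gnmt at 6.53 ± 0.14 against 8.11 ± 0.32 (SD, n = 4 each). Tsc22d3, encoding a leucine zipper protein that glucocorticoids also induce, fell by 1.41 on the log2 scale, and Pbsn, encoding probasin, fell by 1.28. The gene that rose was Mboat2, a membrane-bound acyltransferase, by 0.84, named after its value was seen. Tmprss2, itself induced by androgens, thus differed in sign from 10 of the 11 called genes of the list. The number that fell was 6 without transgenic array 2 or 3 and at least 7 without any other array, and the genes lost in at least 1 of these fits were Homer2, Azgp1, Ell2 and Mme (limma adjusted p up to 0.132). Homer2 kept its call only without wild type array 3 or 4, Ell2 only without wild type array 4, Azgp1 only without transgenic array 4 or wild type array 1 or 2, and Mme only without transgenic array 1 or 4 or wild type array 1 or 4.

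Other membrane serine proteases and their inhibitors had 3 of 11 genes higher and 0 lower (median difference 0.05), where 5.99% of all genes were higher and 4.98% lower. Tmprss4, of the same protease family as Tmprss2, was at 8.23 ± 0.11 in transgenic and 5.21 ± 0.35 in wild type samples (SD, n = 4 each), a difference of 3.03 (limma adjusted p = 5.71e-07), with the wild type mean below every array median. St14, encoding matriptase, rose by 0.47 and missed the threshold without transgenic array 2, 3 or 4 or wild type array 3 (limma adjusted p up to 0.0612). Spint2, an inhibitor of such proteases, rose by 0.56. Of the arrays left out in turn, only transgenic array 3 and wild type array 4 left it past the threshold (limma adjusted p up to 0.133 for the others), and it also missed it when the arrays were normalized by quantiles (adjusted p = 0.0991) or by cyclic loess (adjusted p = 0.135). With the mean of its probe sets Spint2 was at 0.68 and passed (limma adjusted p = 0.00707).

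**Figure D3:**
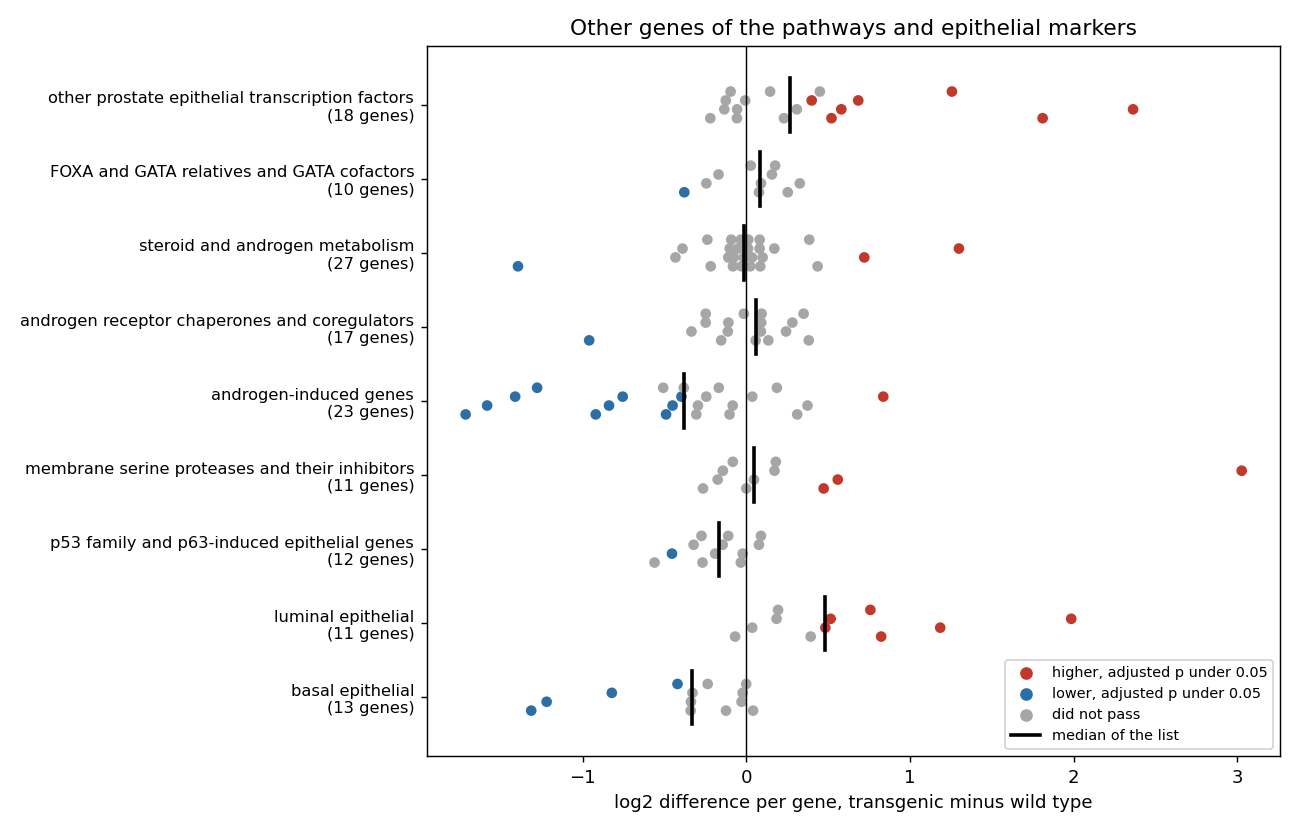
Difference in log2 RMA value, transgenic minus wild type, for each measured gene of 7 pathway lists and of the luminal and basal marker lists, 1 dot per gene; red and blue passed the threshold as higher or lower, grey did not pass, and the black bar is the list median. Androgen-induced genes and basal markers lie mostly below 0, luminal markers mostly above.

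Basal genes are set beside Trp63 because p63 is a factor of basal cells. Among 13 basal markers, 4 passed as lower and 0 as higher, and the median difference was -0.33. Both group means lay below every array median for 6 of the 13. Krt5, the basal keratin, was at 7.11 ± 0.22 in transgenic and 8.33 ± 0.24 in wild type samples, Krt15 at 7.01 ± 0.68 against 8.33 ± 0.10, and the hemidesmosome collagen gene Col17a1 at 4.59 ± 0.10 against 5.41 ± 0.09 (SD, n = 4 each), where the transgenic mean of Col17a1 lay below every array median. These 3 kept their calls without each array, and the other basal gene that fell, Dst, missed the threshold without transgenic array 2, 3 or 4 or wild type array 2 or 3 (limma adjusted p up to 0.0816). Krt14, Krt17, Itgb4 and Itga6 did not pass, with differences of -0.34, -0.0015, -0.02 and 0.04, and were named after their values were seen. Among 12 genes of the p53 family or induced by p63, 1 passed as lower and 0 as higher, and the median difference was -0.17. Of all genes, 11.0% passed in either direction. Bmp7, a growth factor, fell by 0.46 and missed the threshold without transgenic array 2 or 3 or wild type array 2, 3 or 4 (limma adjusted p up to 0.145), and under quantile and cyclic loess normalization. With the mean of its probe sets Bmp7 was at -0.47 and passed (limma adjusted p = 0.0172).

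Markers of the other cell types that the tissue could hold moved with the groups in part. Over all genes, 5.99% passed as higher and 4.98% as lower. The mean gene-centred log2 value of the 13 basal markers lay between -0.26 and -0.12 in transgenic arrays and between 0.06 and 0.30 in wild type arrays. That of the 11 luminal markers lay between 0.26 and 0.36 in transgenic and between -0.39 and -0.22 in wild type arrays. Of the luminal markers 6 rose and 0 fell, among them Dpp4, a surface peptidase, by 1.99 at its brighter probe set, Cd24a by 1.18 and Cdh1, encoding E-cadherin, by 0.82. The other of the 2 Dpp4 probe sets, at 0.22, did not pass. Krt8, another of the 6, missed the threshold without transgenic array 4 or wild type array 3 (limma adjusted p up to 0.0675). Of 7 ventral prostate secretion genes 0 rose and 3 fell, Msmb, Pbsn and Azgp1, and the score lay between -0.61 and -0.0024 in transgenic and between 0.05 and 0.72 in wild type arrays. These 3 genes were also counted among the androgen-induced genes that fell, so their fall is no separate observation. The urothelial score did not overlap either, from -0.24 to -0.02 in transgenic and from 0.02 to 0.24 in wild type arrays, with Upk1a (-0.96) as the 1 of 5 genes that fell. All 5 seminal vesicle genes had both means below every array median and 0 passed in limma, with 0 at an unadjusted p under 0.05.

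Scores of stroma and of blood cells overlapped between the groups, but every fibroblast and smooth muscle gene was lower by value in transgenic samples. The median difference was -0.59 for the 10 fibroblast genes, 6 of them with an unadjusted limma p under 0.05. It was -0.45 for the 9 smooth muscle genes, 4 of them with such a p. Over all genes the median was -0.04, and 4.98% passed as lower. The fibroblast score lay between -0.40 and -0.17 in transgenic and between -0.32 and 0.93 in wild type arrays, and 2 of 10 fibroblast genes fell, Dcn (-1.15) and Pdgfra (-0.74). Pdgfra missed the threshold when any array other than wild type 1 or 4 was left out (limma adjusted p up to 0.129). The smooth muscle score lay between -0.46 and -0.10 in transgenic and between -0.11 and 0.66 in wild type arrays, and 2 of 9 genes fell, Smtn (-0.70) and Mylk (-0.55), with Mylk lost without transgenic array 1, 2 or 4 or wild type array 2 or 3 (limma adjusted p up to 0.0669). Cells that make Gata2 or Gata3 outside the epithelium showed no call: 0 of 10 endothelial, 0 of 8 mast cell, 0 of 10 T and NK cell and 0 of 8 sympathetic nerve genes passed in limma, and 1, 1, 0 and 1 of them had an unadjusted p under 0.05. Both group means lay below every array median for 7 of the 10 endothelial, 8 of the 8 mast cell, 9 of the 10 T and NK cell and 7 of the 8 nerve genes. Of 11 macrophage markers 1 passed as higher, Mrc1, by 2.27, while by value 3 were higher and 8 lower (median difference -0.21). The macrophage score lay between -0.08 and 0.05 in transgenic and between -0.48 and 0.41 in wild type arrays. A sign of RNA quality, the log2 value of 3 prime minus 5 prime control probe sets for Gapdh and beta actin, was 1.12 ± 0.19 in transgenic and 1.47 ± 0.09 in wild type samples (SD, n = 4 each). The part of cell makeup and RNA quality in the changes of Tmprss2, Trp63 and Gata2 was not tested.

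**Figure D4:**
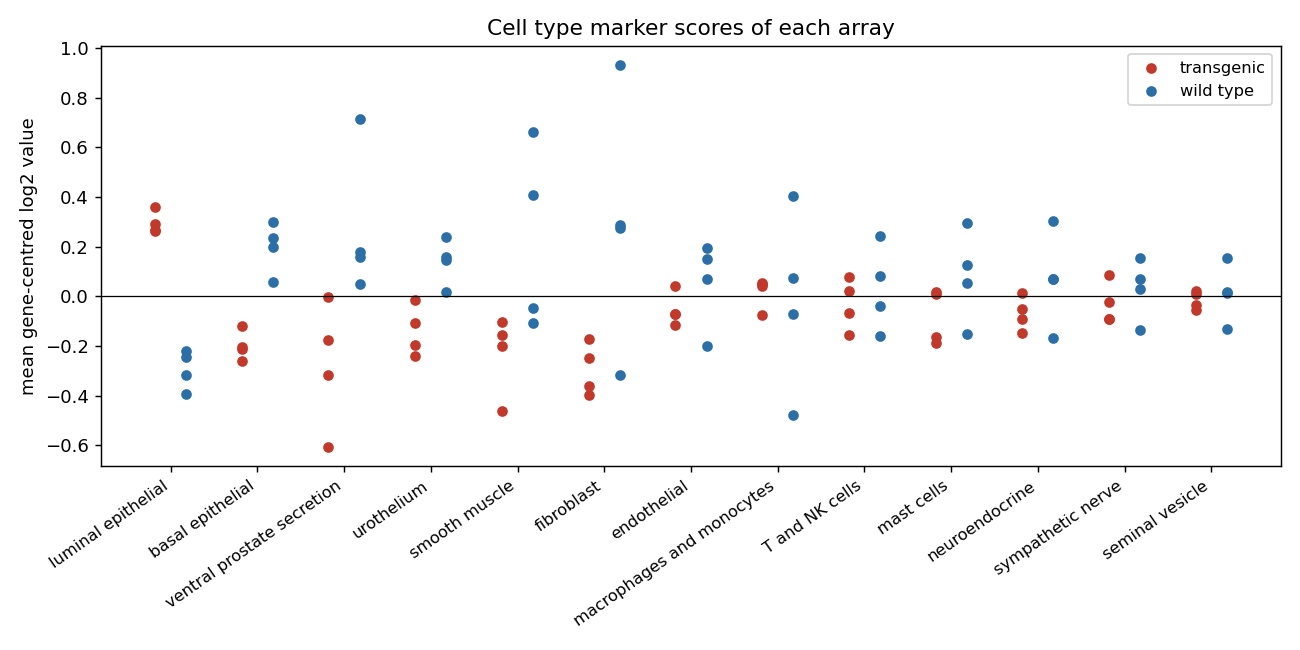
Mean gene-centred log2 value of the measured genes of 13 cell type marker lists, 1 dot per array, transgenic (red) left of wild type (blue). The groups do not overlap for luminal, basal, ventral prostate secretion and urothelial markers and overlap for the other lists.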

How the data were processed

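Expression was measured with Affymetrix mouse arrays in 4 transgenic and 4 wild type ventral prostates. The deposited table holds log2 values. The submitters' processing notes name RMA, without a version, as the authors' method. That method usually brings arrays to similar distributions, which can remove a shift shared by all transcripts; the array medians here still ranged from 5.40 to 5.51. After 64 control probe sets were left out, 22626 entered lmFit and eBayes of limma 3.58.1 under R 4.3.3. Gene names came from the annotation of the array platform, and symbols were updated by gene identifier through the RefSeq table of assembly GRCm38.p6: 20380 had 1 symbol, 691 several and 1555 none, and 12393 genes were represented. Promoter sequences came from RefSeq, where 7 of the 8 genes had a window. The fitting step was checked on simulated data.

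Every probe set of each member is named whatever its values, then up to 4 called genes of each pathway list and up to 3 of each marker list by size of change, or the gene with the smallest p. The members and lists were chosen with earlier results of these data known, so no list is independent evidence of its direction. Differences within pairs of related genes were tested by exact permutation over the assignments of arrays to groups. No label pairs the samples by replicate number. The correlation of deviations from the group means between arrays of the same number was -0.31, 0.24, -0.20 and 0.33. These values are mixed in sign and cannot exclude a shared preparation. Alternatives were other normalizations, a filter on dim probe sets, other variance models, array weights, the mean of a gene's probe sets, a replicate block and leaving out each array.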

Additional observations from a re-analysis of the deposited data

Results flagged for a closer look

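In 120 groups of 4 arrays checked at a level of 1 in 20, 7 held an array far from the other 3. The checks share the same 8 arrays and are not independent, so this number was not set against chance. Of the 7, 6 were in the transgenic group, and 5 of the 6 were transgenic array 1. Whether that array differs as a whole was not tested. Transgenic array 1 was lowest for Spdef, at 8.09 with the nearest array at 8.45, and for the macrophage score, at -0.08 with the nearest at 0.04. It was highest for Zfpm1, at 5.83 against 5.59, for Akr1c12, at 8.23 against 7.82, and for Ncoa4, at 10.88 against 10.34 in the nearest transgenic array. Elf3 was highest in transgenic array 3, at 8.17 with the nearest at 8.01. Upk1a was highest in wild type array 2, at 9.96 with the nearest at 9.57. No probe set of the lineage genes themselves stood out in this way. The calls of Spdef, Elf3, Zfpm1, Ncoa4 and Upk1a were kept without the array named, and that of Akr1c12 was lost.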

How the results depend on the processing

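Tmprss2 was higher and Gata2 and Trp63 (at their brightest probe set or the mean of probe sets) were lower under every alternative that gave them a value. Tmprss2 also kept its call under each. Trp63 missed the threshold only with the mean of its probe sets (-0.25, limma adjusted p = 0.0921), and its probe set was not among those kept when the dimmest 40% were left out, so 1 member fell under each of these 2 settings. Gata2 missed it only when an array was left out, with differences from -0.84 to -0.56, and the members that fell then numbered 1 to 2. Uncalled values near 0 changed sign: Foxa2 was at 0.00026 with cyclic loess normalization, and leaving out an array gave -0.15 to 0.13 for Foxa2, -0.013 to 0.13 for Foxa1 and -0.050 to 0.077 for Trp63 at 1451876_a_at, which was at -0.016 with array weights. The Gata2 and Gata3 pair was at -0.96 to -0.60 with an array left out, -0.78 with quantile normalization (exact p = 0.0571) and -0.57 with the mean of probe sets (exact p = 0.0857), and the Foxa1 and Foxa2 pair lay between -0.050 and 0.27 with an array left out. The steroid reductase pair was not run. Over all genes, leaving out an array gave 494 to 821 higher genes and 359 to 693 lower, with 494 higher and 359 lower without transgenic array 2, and 378, 379 and 397 lower without transgenic array 3 or 4 or wild type array 3. Array weights gave 1068 lower genes, and 2 higher among the androgen-induced genes. Of those, 6 to 9 fell when an array was left out. The replicate block, tried though no label pairs the samples by number, gave 6 of them lower, against 10 without it. It gave 599 higher and 486 lower genes over all, changed no call of a member, and lost those of Ehf, Foxq1, Zfpm1, Homer2, Odc1, Ell2, Mme, St14, Bmp7, Dst, Krt8 and Pdgfra. Homer2 was also lost with array weights, Ell2 and Bmp7 with a mean-variance trend, Cldn7 with quantile normalization, and Mme and Pdgfra with the mean of probe sets. The cause of these shifts was not tested. In all, 1 of 4 transgenic arrays correlated best with the wild type array of its own number.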
